A study of Mus musculus with 6 samples.

Results

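Amino acid transporter genes were followed in mouse embryonic stem cells treated with 4OHT or vehicle. The genes were those of the table whose symbols belong to the solute carrier families SLC1, SLC3, SLC6, SLC7, SLC36, SLC38 and SLC43, without Slc7a11 and Slc38a4. The rule works on names, but it was set with earlier results of these data known. It found 57 of the 23999 genes: 7 of Slc1a, 2 of Slc3a, 17 of Slc6a, 14 of Slc7a, 4 of Slc36a, 10 of Slc38a and 3 of Slc43a. Of these, 44 had at least 10 counts in vehicle replicate 1 or 4OHT replicate 1 and were tested.

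The study compared 2 conditions with 3 samples each. In all 6 samples the element named -5 was floxed and an exogenous mouse Nanog with a V5 tag was present. Cells grown in well plates received either ethanol, the vehicle (n = 3), or tamoxifen, written 4OHT (n = 3), over 6 days before polyadenylated RNA was sequenced. The question, by the series title, is what an enhancer of Nanog needs for Nanog expression. Which Cre recombinase was used, and whether the line is 1 clone, is not given in the sources used here. No samples of cells without the floxed element are among these 6, so the effects of 4OHT and of the floxed element cannot be told apart, and no label says whether the samples of a group came from separate cultures. P-values therefore measure the spread between these samples, which may be technical.

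Amino acid carriers bring building blocks for protein, nucleotides and antioxidants across the cell and lysosome membranes. Some use the sodium gradient to concentrate their substrates (SLC1, SLC6, SLC38), some are driven by protons (SLC36), and the SLC7 light chains are exchangers that need an SLC3 heavy chain to reach the membrane. Embryonic stem cells divide fast and depend on amino acid supply, and the uptake of leucine and arginine also feeds the growth kinase mTORC1. Not every carrier in these families takes amino acids: within SLC6 are carriers of creatine, taurine, GABA and monoamines, and Slc43a3 encodes a purine nucleobase carrier.

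Library totals ran from 20030423 to 52250671 counts in vehicle and were 55194644, 515388 and 31307423 in 4OHT replicates 1, 2 and 3. One read in 4OHT replicate 2 was worth 1.9 CPM (counts scaled to the library total with TMM factors), and 3 reads 5.71 CPM, against at most 0.15 CPM for 3 reads in the other libraries. That library had no read for 13 of the 44 tested transporter genes and under 3 reads for 22, so for genes below about 5 CPM the 4OHT level rests on replicates 1 and 3. Nanog stood at 632, 662 and 646 CPM in vehicle and at 177, 171 and 192 CPM in 4OHT cells. Its counts can include the tagged copy. The 8 stem cell markers Pou5f1, Sox2, Nanog, Zfp42, Esrrb, Tdgf1, Dppa5a and Utf1 summed to between 6362 and 6587 CPM in vehicle and between 5701 and 5993 CPM in 4OHT libraries. Among these 8, 1 rose (Sox2), 3 fell (Nanog, Pou5f1 and Utf1) and 4 did not pass. Pou5f1 had means of 1289 CPM in vehicle and 1116 CPM in 4OHT (log2 fold change -0.22). Esrrb and Zfp42, which did not pass, stood between 647 and 837 CPM in all 6 libraries. Of 9 tested markers of primitive and visceral endoderm 8 rose and Amn did not pass. Their list summed to between 97.8 and 109 CPM in vehicle and to between 177 and 210 CPM in 4OHT libraries, with Gata6 at 10.4, 11.4 and 12 CPM in 4OHT and Ttr at 0 in every library. Lama1 made up most of these sums, with means of 94.6 CPM in vehicle and 135 CPM in 4OHT (log2 fold change 0.53). Cubn, Gata6 and Sox17 rose by more from low levels, with log2 fold changes of 5.22, 4.04 and 3.52. Fibroblast markers summed to between 24.5 and 26.3 CPM and to between 14 and 19 CPM, with Thy1 the 1 of 4 tested that passed (lower) and Postn at 0. Neural markers summed to between 129 and 137 CPM and to between 89.9 and 93.2 CPM (1 of 6 tested rose, 1 fell). Tubb3 made up most of the neural sums and fell, with means of 113 CPM in vehicle and 71.5 CPM in 4OHT. Sox1 rose, from a mean of 4.9 to 7.16 CPM. Trophoblast markers summed to between 94.5 and 98.3 CPM and to between 97.7 and 107 CPM (2 of 5 rose, 1 fell). Most of that was Tfap2c, with means of 74.1 CPM in vehicle and 85.4 CPM in 4OHT. The part of these markers' cells in any transporter result was not tested, and in bulk RNA fewer cells of a type and less RNA per cell cannot be told apart.

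The transporter genes moved in both directions. Of the 44 tested, 8 rose, 10 fell and 26 did not pass edgeR's quasi-likelihood test at an adjusted p of 0.05, so 40.9% were called where 21.9% of all 15814 tested genes were called. By direction, 18.2% of the tested transporter genes rose against 11.1% of all tested genes, and 22.7% fell against 10.8%. The 10 that fell include Slc6a5, which met the count minimum only through vehicle, the group where it was high. The same minimum was applied to all tested genes. Among genes with a mean of at least 10 CPM over the 6 libraries, 10 of 18 transporter genes were called beside 23.1% of 8882 genes. There, 4 of the 18 rose beside 11.6% of all such genes, and 6 fell beside 11.5%. The median log2 fold change was -0.02 over the 44 and -0.01 over all tested genes. The median size regardless of sign was 0.35 against 0.16, and 0.23 against 0.11 among genes of at least 10 CPM. The summed level of the 57 genes was 2063, 2091 and 2100 CPM in vehicle and 2069, 2081 and 2174 CPM in 4OHT libraries, so the groups overlapped in the sum while single genes went up and down.

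The 8 that rose were Slc6a14, Slc7a2, Slc43a3, Slc6a8, Slc38a7, Slc38a6, Slc1a4 and Slc7a1, and among the 10 that fell were Slc6a5, Slc38a5, Slc6a7, Slc36a1, Slc6a15, Slc7a3, Slc6a6, Slc7a7 and Slc38a10. The fitted change was at least 2-fold in 4 of them: Slc6a14, Slc7a2, Slc38a5 and Slc6a5, all below 4 CPM in every library. Of these, Slc6a5 met the count minimum only through its vehicle count. The number of calls depended on the tool. DESeq2 was run on the same 15814 genes, with the 44 transporter genes among them, and gave 33 of the 44 an adjusted p. It called 977 of the 15814 genes and 6 of the 44 transporter genes, 4 higher and 2 lower. These 6, Slc6a14, Slc43a3, Slc6a8, Slc38a7, Slc7a3 and Slc36a1, also passed in every other alternative run. Without vehicle replicate 1 edgeR called 8 higher and 6 lower, beside 2719 of 15814 genes called in all. The vehicle and 4OHT values did not overlap in 15 of the 18. That number comes from genes already called on the same values, and the share over all tested genes was not computed. Among the 15, Slc38a5, Slc6a7 and Slc6a5 had no read in the shallow 4OHT replicate 2, and Slc6a14 had 2 reads there.

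**Figure D1:**
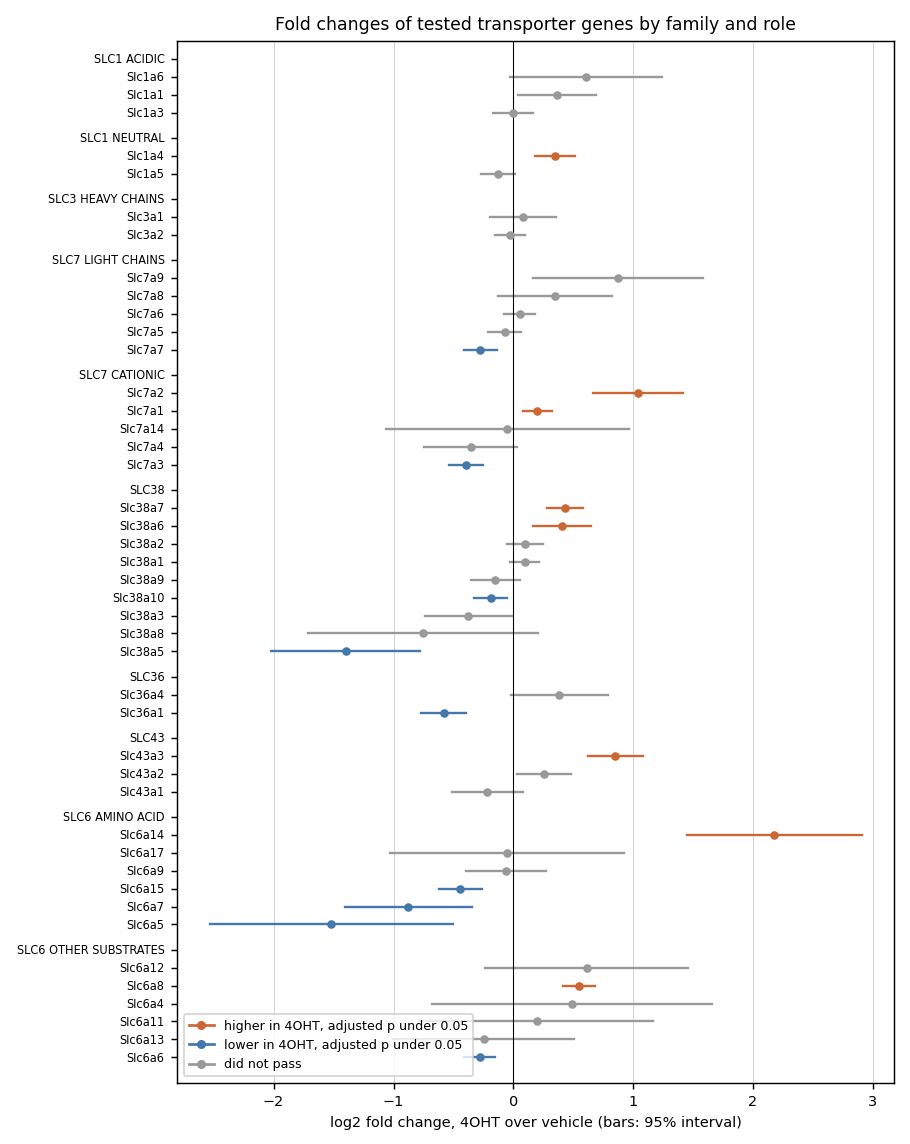
Log2 fold change (4OHT over vehicle, horizontal axis) of the tested transporter genes described in the text, with its 95% interval, grouped by family and role. Orange marks genes that were higher in 4OHT cells, blue those that were lower and grey those that did not pass, and both colours occur within the cationic, SLC38 and both SLC6 groups.

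Promoter windows were searched for the motifs of factors known to respond to amino acid shortage (ATF4, C/EBP) and lysosomal demand (TFEB and its relatives, which bind E-boxes). RefSeq windows of 300 bases, from 250 bases before to 50 after each annotated start (GRCm38.p6), were found for 39 of the 57 genes. The core of the C/EBP-ATF response element, TTGCATCA on either strand, was in a window of 2 of the 39 (5.13%), Slc1a4 and Slc7a7, beside 1.03% of all 27025 genes with a window. The E-box CACGTG, whose reverse complement is the same, was in a window of 8 of the 39 (20.5%) beside 8.09% of all genes. These shares are per gene, and a gene with several windows has more places for a match. Per window, 7.15% of all 32851 held the E-box, and the share of the transporter windows was not computed. Slc6a8, Slc7a3, Slc7a2, Slc43a3, Slc6a6, Slc6a15 and Slc6a7 were among the genes without a window and so were not searched. The 8 were Slc1a6, Slc1a7, Slc36a1, Slc38a5, Slc38a7, Slc43a1, Slc6a3 and Slc7a14, of which Slc38a7 rose, Slc36a1 and Slc38a5 fell, and the others did not pass or were not tested. The windows below show Slc38a7 and Slc36a1, which both encode carriers of the lysosome membrane and moved in opposite directions with the same E-box in their windows. Slc1a4 is shown for its C/EBP-ATF core, whose first base lies 4 bases before the start, and Slc6a14 as the gene with the largest rise, with a window that holds neither motif. Capitals mark the motifs, each sequence runs 5′ to 3′ on the strand of the gene, and a match is a match of letters only.
Slc38a7 (chr8:95853442-95853741, minus strand): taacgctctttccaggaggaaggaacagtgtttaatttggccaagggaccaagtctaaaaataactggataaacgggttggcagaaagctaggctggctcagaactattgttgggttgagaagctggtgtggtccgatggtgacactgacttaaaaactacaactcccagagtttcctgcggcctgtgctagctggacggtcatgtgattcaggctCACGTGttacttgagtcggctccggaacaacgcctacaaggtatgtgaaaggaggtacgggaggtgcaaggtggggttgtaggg
Slc36a1 (chr11:55204090-55204389, plus strand): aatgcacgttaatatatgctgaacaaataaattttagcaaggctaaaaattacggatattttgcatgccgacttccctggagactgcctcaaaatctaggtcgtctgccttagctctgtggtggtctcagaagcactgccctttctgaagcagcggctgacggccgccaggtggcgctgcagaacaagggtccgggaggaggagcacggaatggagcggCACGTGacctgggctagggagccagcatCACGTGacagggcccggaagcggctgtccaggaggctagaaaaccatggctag
Slc1a4 (chr11:20332664-20332963, minus strand): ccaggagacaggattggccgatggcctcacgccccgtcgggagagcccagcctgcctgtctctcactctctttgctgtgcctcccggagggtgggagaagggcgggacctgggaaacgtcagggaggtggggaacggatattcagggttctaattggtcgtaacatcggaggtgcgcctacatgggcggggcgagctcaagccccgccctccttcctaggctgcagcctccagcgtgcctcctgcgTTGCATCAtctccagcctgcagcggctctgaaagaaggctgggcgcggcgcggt
Slc6a14 (chrX:21714650-21714949, plus strand): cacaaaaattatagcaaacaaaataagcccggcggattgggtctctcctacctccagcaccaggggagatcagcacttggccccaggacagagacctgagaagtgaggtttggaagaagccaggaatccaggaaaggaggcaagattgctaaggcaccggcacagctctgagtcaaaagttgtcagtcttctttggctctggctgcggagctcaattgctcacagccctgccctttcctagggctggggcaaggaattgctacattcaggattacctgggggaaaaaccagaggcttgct

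Slc36a1 has the E-box CACGTG at 2 places in its window, with first bases 31 and 3 bases before the start. In the window of Slc38a7 it occurs once, 34 bases before the start.

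Levels were compared between genes per kilobase of exon (union of GENCODE vM21 exons on GRCm38). The order depends on this choice of length. In CPM alone, Slc38a2 stood highest in vehicle, with a mean of 340 CPM against 273 CPM for Slc7a5. Per kilobase the large neutral amino acid exchanger led: Slc7a5, the light chain that takes up leucine and other large neutral amino acids, and Slc3a2, the heavy chain that carries it to the membrane. In vehicle cells Slc7a5 stood at 73.7 ± 1.91 and Slc3a2 at 69.4 ± 0.887 CPM per kb (SD, n = 3). Below them came Slc7a3 (47.2 ± 2.46), Slc38a2 (38.4 ± 1.05), Slc6a8 (31.4 ± 0.466) and Slc7a7 (29.9 ± 1.27 CPM per kb). In vehicle the Slc7a5 values of 71.6 to 75.2 CPM per kb lay above those of Slc3a2, 68.4 to 70.0, while in 4OHT the 2 genes overlapped, at 64.4 to 74.6 and 65.2 to 74.4. The order below them differed between the conditions. Slc6a8 was under Slc7a3 in each vehicle library, at 30.9, 31.5 and 31.8 against 44.4, 48.0 and 49.1 CPM per kb. It was above Slc7a3 in each 4OHT library, at 42.9, 53.3 and 46.6 against 33.2, 40.2 and 37.7 CPM per kb.

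**Figure D2:**
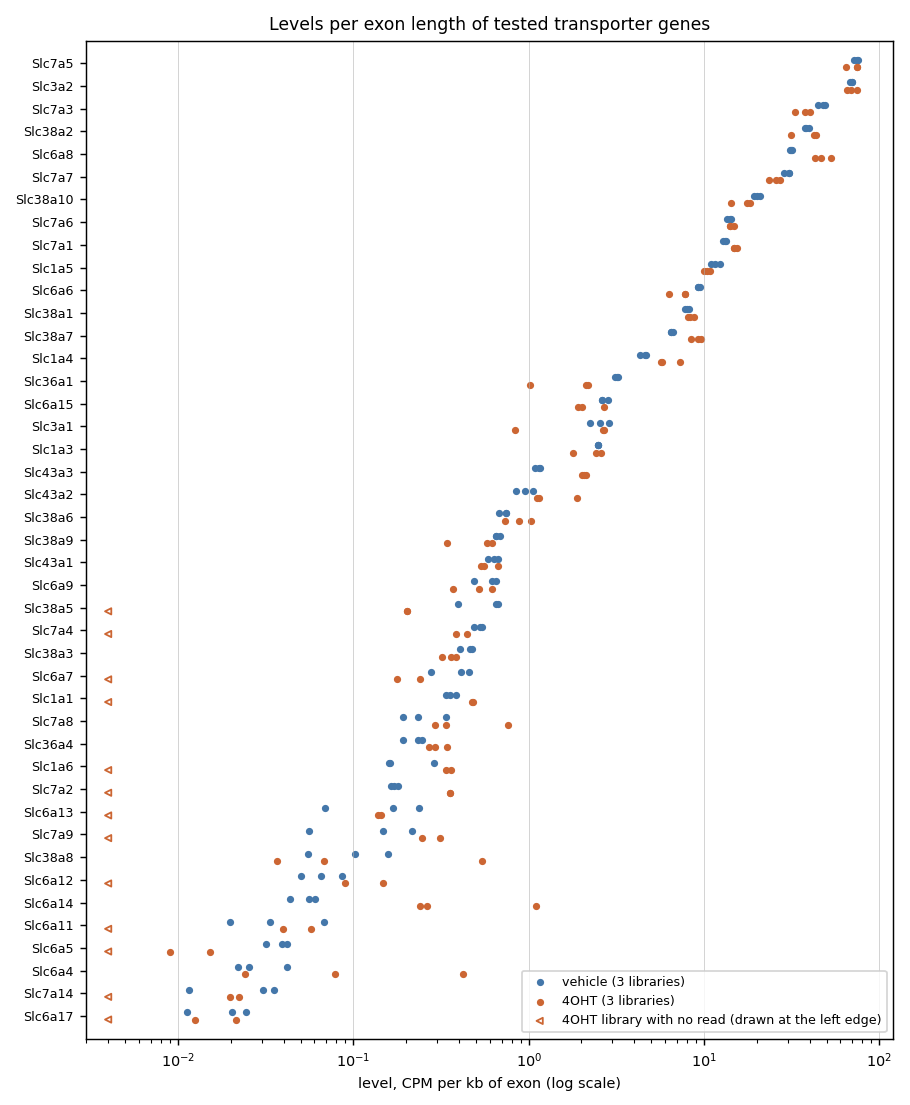
Level of the tested transporter genes described in the text in the 6 libraries, in CPM per kb of exon on a log axis, ordered by the vehicle mean; open triangles at the left edge are 4OHT libraries with no read. Slc7a5 and Slc3a2 lead at about 70 CPM per kb, and Slc6a8 passes Slc7a3 in 4OHT libraries.

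Of the 7 tested heavy and light chains, Slc7a7 fell and 6 did not pass. Slc3a2 had 241, 247 and 247 CPM in vehicle and 230, 263 and 245 CPM in 4OHT cells, and the groups overlapped. Its log2 fold change, -0.03, did not pass (95% interval -0.15 to 0.10, with an edgeR adjusted p of 0.805). Slc7a5 had 276, 279 and 265 CPM against 239, 276 and 277 CPM, again with overlap (log2 fold change -0.07, 95% interval -0.21 to 0.06, with an edgeR adjusted p of 0.467). Slc7a6, a light chain that exchanges cationic for neutral amino acids, had 61.7, 64.3 and 64.9 CPM against 64.2, 64.7 and 68.1 CPM (log2 fold change 0.05, with an edgeR adjusted p of 0.59). Slc7a7, which encodes the related exchanger that exports cationic amino acids from epithelial cells, fell. It went from 94.4, 102 and 102 CPM to 77.8, 89.4 and 85.2 CPM, with all 4OHT values below all vehicle values. Its log2 fold change of -0.27 (SE 0.06) came with an edgeR adjusted p of 0.00368 and a DESeq2 adjusted p of 0.0644. An opposite-strand gene, Oxa1l, covers 7% of its exon bases, and no use of strand is given in the sources used here.

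The other chains were low. Slc3a1, the heavy chain known from cystinuria, had 5.05, 6.54 and 5.79 CPM against 5.99, 1.9 and 6.14 CPM (log2 fold change 0.08, with an edgeR adjusted p of 0.718), and opposite-strand Prepl covers 26.5% of its exon bases. Its light chain Slc7a9 stood between 0.15 and 0.575 CPM in vehicle and at 0.657, 0 and 0.84 CPM in 4OHT cells (log2 fold change 0.87, with an edgeR adjusted p of 0.0735). It did not pass with all libraries, and its adjusted p was 0.0416 without 4OHT replicate 1 and 0.0389 without vehicle replicate 3. Slc7a8, a second partner of Slc3a2 for neutral amino acids, stood between 0.959 and 1.7 CPM against 1.46, 3.8 and 1.68 CPM (edgeR adjusted p = 0.306). Slc7a10, Slc7a12, Slc7a13 and Slc7a15 were below the count minimum, and Slc7a12 had no read in any library.

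The cationic amino acid transporters, which carry arginine and lysine without a heavy chain, went both ways. Slc7a3 fell from 168, 182 and 186 CPM to 125, 152 and 143 CPM, without overlap between the groups (log2 fold change -0.40, SE 0.07, 95% interval -0.54 to -0.25, with an edgeR adjusted p of 0.000191). Slc7a1, the broadly expressed member, rose from 153, 149 and 154 CPM to 171, 171 and 178 CPM, also without overlap. This rise was small (log2 fold change 0.20, SE 0.06, with an edgeR adjusted p of 0.0153). It did not pass without vehicle replicate 2 (adjusted p = 0.112), without vehicle replicate 3 (0.0503) or in DESeq2 (0.0668). Slc7a2, the member known for arginine supply in activated macrophages and liver, rose from a low level. It had 1.49, 1.55 and 1.65 CPM in vehicle and 3.23, 0 and 3.23 CPM in 4OHT cells, so 4OHT replicates 1 and 3 lay above vehicle and the shallow replicate 2 had no read. The rise was 1.04 on the log2 scale (SE 0.18) with an edgeR adjusted p of 0.000192, and it passed without 4OHT replicate 2 but not in DESeq2 (adjusted p = 0.432). Slc7a4 had 2.19, 2.25 and 2.03 CPM against 1.61, 0 and 1.84 CPM and Slc7a14 at most 0.345 CPM in any library, and neither passed.

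Per exon length, Slc7a3 made up 76.8%, 78.6% and 78.4% of the summed level of Slc7a1, Slc7a2 and Slc7a3 in the vehicle libraries and 68.6%, 73.0% and 70.5% in the 4OHT libraries. The share of Slc7a1 was 22.9%, 21.1% and 21.3% in vehicle and 30.7%, 27.0% and 28.9% in 4OHT. Neither share overlapped between the groups. Per exon length, Slc7a3 was thus the leading carrier gene of the 3 in every library, by less in 4OHT. In CPM without division by length, Slc7a1 over Slc7a3 was 0.908, 0.82 and 0.826 in vehicle and 1.36, 1.125 and 1.25 in 4OHT. The sum of the 3 genes was 57.8, 61.0 and 62.6 CPM per kb in vehicle and 48.3, 55.1 and 53.5 in 4OHT. These shares were chosen after the single values were seen and are a description without a test.

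**Figure D3:**
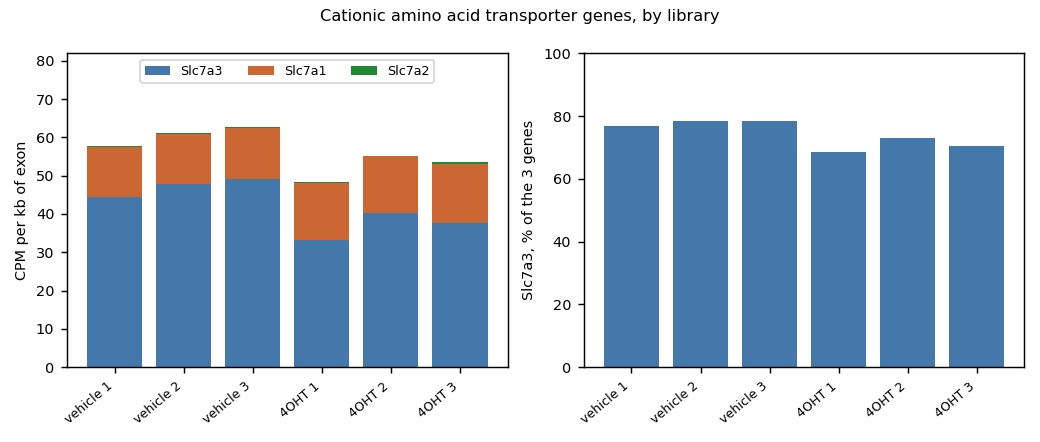
Left, CPM per kb of exon of Slc7a3, Slc7a1 and Slc7a2 stacked for each library; right, the percentage of that sum which belongs to Slc7a3. The share of Slc7a3 lies between 76.8% and 78.6% in vehicle and between 68.6% and 73.0% in 4OHT libraries.

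In the SLC1 family the acidic and neutral carriers were described apart. Slc1a4, a neutral carrier for alanine, serine and cysteine, rose from 17.0, 18.3 and 18.1 CPM to 22.2, 28.5 and 22.5 CPM. All 4OHT values lay above all vehicle values (log2 fold change 0.35, SE 0.08, with an edgeR adjusted p of 0.0035, DESeq2 adjusted p = 0.185). Slc1a5, the sodium-dependent glutamine carrier, had 48.0, 51.7 and 45.8 CPM against 43.2, 41.9 and 45.4 CPM. The groups did not overlap by a narrow margin, but the difference did not pass (log2 fold change -0.13, 95% interval -0.27 to 0.01, with an edgeR adjusted p of 0.188). Of the glutamate carriers, Slc1a3 stood at 21.3 CPM in each vehicle library and at 21.9, 15.2 and 20.7 CPM in 4OHT (log2 fold change -0.0045, 95% interval -0.17 to 0.16, with an edgeR adjusted p of 0.981). Slc1a1 stood between 2.8 and 3.2 CPM against 3.91, 0 and 3.97 CPM (edgeR adjusted p = 0.108), and the opposite-strand gene 4430402I18Rik covers 31.9% of its exon bases. Slc1a6 stayed below 1 CPM and did not pass, and Slc1a2 and Slc1a7 were below the count minimum.

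The SLC38 family, sodium-coupled carriers of glutamine and other neutral amino acids, moved in both directions: 2 of 9 tested rose, 2 fell and 5 did not pass. The abundant plasma membrane members did not pass. Slc38a2, which is known to be induced when amino acids run short, had 331, 338 and 349 CPM in vehicle and 377, 278 and 382 CPM in 4OHT. The shallow 4OHT replicate 2 lay below vehicle and the others above it (log2 fold change 0.10, 95% interval -0.05 to 0.25, with an edgeR adjusted p of 0.376). Slc38a1 had 138, 134 and 141 CPM against 151, 139 and 144 CPM (log2 fold change 0.09, with an edgeR adjusted p of 0.282). Slc38a7, a lysosomal exporter of glutamine and asparagine, rose from 27.6, 26.9 and 26.8 CPM to 34.8, 40 and 38.2 CPM without overlap (log2 fold change 0.43, SE 0.07, 95% interval 0.28 to 0.58, with an edgeR adjusted p of 0.000127).

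Slc38a5, a glutamine and histidine carrier, fell to 0.379 of its vehicle level in the fit. It had 0.889, 1.5 and 1.46 CPM in vehicle and 0.456, 0 and 0.452 CPM in 4OHT, with counts of 47, 30 and 38 against 25, 0 and 14 (log2 fold change -1.40, SE 0.30, with an edgeR adjusted p of 0.00155). Slc38a6 went from 5.75, 5.25 and 5.79 CPM to 8.01, 5.71 and 6.85 CPM, with 4OHT replicate 2 inside the vehicle range (log2 fold change 0.41, SE 0.12, with an edgeR adjusted p of 0.0152). Its adjusted p was 0.164 without 4OHT replicate 1, 0.0724 without vehicle replicate 2 and 0.581 in DESeq2. The value is uncertain also because 3 other genes, among them Noct, match 81.1% to 83.0% of its longest coding transcript at 95% identity or more. Slc38a10, a member with a less studied role, went from 134, 128 and 124 CPM to 117, 91.3 and 112 CPM (log2 fold change -0.19, SE 0.06, with an edgeR adjusted p of 0.0379). Its adjusted p rose to 0.139, 0.1 and 0.0546 without vehicle replicate 1, 2 or 3, to 0.0732 without 4OHT replicate 2, to 0.0541 with another low-count filter and to 0.263 in DESeq2. Slc38a9, the lysosomal arginine sensor of mTORC1, had 10.9, 10.9 and 11.4 CPM against 10.4, 5.71 and 9.66 CPM (log2 fold change -0.15, with an edgeR adjusted p of 0.3). Slc38a3 stood between 2.15 and 2.49 CPM against 1.7 to 2.04 CPM (edgeR adjusted p = 0.135), Slc38a8 below 2 CPM did not pass, and Slc38a11 was below the count minimum.

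Slc36a1 encodes a proton-coupled carrier of small amino acids on lysosomes and the cell surface, and it fell. Its values were 17.9, 17.6 and 18.1 CPM in vehicle and 11.9, 5.71 and 12.2 CPM in 4OHT, where replicate 2 rests on 3 reads. All 4OHT values lay below all vehicle values (log2 fold change -0.58, SE 0.09, 95% interval -0.77 to -0.39, with an edgeR adjusted p of 6.33e-05), and without that library the fall passed as well. In DESeq2 the fall of Slc36a1 passed narrowly, with an adjusted p of 0.0496. Slc36a4 had 1.61, 1.25 and 1.53 CPM against 1.77, 1.9 and 2.23 CPM (log2 fold change 0.38, with an edgeR adjusted p of 0.174). Slc36a2 and Slc36a3 were below the count minimum.

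Of the SLC43 family Slc43a3, the purine nucleobase carrier, rose 1.8-fold. It had 5.18, 5.1 and 4.83 CPM in vehicle and 9.24, 9.51 and 8.95 CPM in 4OHT cells. No overlap was seen between the groups (log2 fold change 0.85, SE 0.11, 95% interval 0.62 to 1.08, with an edgeR adjusted p of 5.22e-06). The value of 4OHT replicate 2 rests on 5 reads, so its closeness to replicates 1 and 3 says little about the spread. The amino acid carriers of the family did not pass. Slc43a2, a facilitator for large neutral amino acids, had 10.6, 9.59 and 8.48 CPM against 11.2, 19 and 11.6 CPM (log2 fold change 0.26, with an edgeR adjusted p of 0.103), and Slc43a1 3.63, 3.35 and 3.8 CPM against 3.05, 3.8 and 3.17 CPM (log2 fold change -0.22, with an edgeR adjusted p of 0.311).

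Among the 8 SLC6 genes for amino acids, 6 were tested, of which 1 rose and 3 fell. Slc6a14, a carrier of both neutral and cationic amino acids, rose from 0.208, 0.15 and 0.192 CPM to 0.822, 3.8 and 0.905 CPM, with counts of 11, 3 and 5 against 45, 2 and 28. The groups did not overlap. On the log2 scale the rise was 2.18 (SE 0.35, 95% interval 1.45 to 2.91) with an edgeR adjusted p of 8.72e-05, the largest of the 44. Slc6a15, a carrier of branched-chain amino acids and proline, fell from 20.3, 20.3 and 21.8 CPM to 15.5, 20.9 and 14.8 CPM. The shallow 4OHT replicate 2, with 11 reads, lay inside the vehicle range (log2 fold change -0.44, SE 0.09, with an edgeR adjusted p of 0.00058, DESeq2 adjusted p = 0.15). Slc6a7, a proline carrier known from neurons, fell from 1.42, 0.949 and 1.57 CPM to 0.822, 0 and 0.614 CPM (log2 fold change -0.88, SE 0.25, with an edgeR adjusted p of 0.0163). Its adjusted p was 0.072 without vehicle replicate 1, 0.0653 without vehicle replicate 3 and 0.675 in DESeq2.

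Slc6a5, a neuronal glycine carrier, was at 0.284, 0.3 and 0.23 CPM in vehicle and 0.11, 0 and 0.0646 CPM in 4OHT, with counts of 15, 6 and 6 against 6, 0 and 2. It entered the test only through its vehicle count, as 1 of 4 genes that met the minimum in 1 group alone with Slc7a14, Slc6a4 and Slc6a11, so its call (log2 fold change -1.52, with an edgeR adjusted p of 0.0291) is a description only. The adjusted p lay between 0.0502 and 0.0966 without any 1 of vehicle replicates 1 and 2 or the 4OHT replicates, and the log2 fold change was -2.00 without 4OHT replicate 1. Slc6a9, the other glycine carrier gene, had 3.37, 2.5 and 3.18 CPM against 3.19, 1.9 and 2.68 CPM (log2 fold change -0.06, with an edgeR adjusted p of 0.837), and opposite-strand Ccdc24 covers 27.8% of its exon bases. Slc6a17 stayed below 0.3 CPM and did not pass, Slc6a19 was below the count minimum and Slc6a18 had no read.

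Of the SLC6 carriers of other substrates 7 were tested, of which 1 rose and 2 fell. Slc6a8, the creatine transporter, rose from 161, 164 and 166 CPM to 223, 278 and 243 CPM, with all 4OHT values above all vehicle values. This was a 1.46-fold rise (log2 fold change 0.55, SE 0.06, 95% interval 0.41 to 0.68) with an edgeR adjusted p of 1.69e-06, and DESeq2 gave an adjusted p of 7.31e-10. Slc6a6, the taurine transporter, fell from 80.6, 78.4 and 77.8 CPM to 65.6, 53.3 and 65.6 CPM, also without overlap (log2 fold change -0.28, SE 0.06, with an edgeR adjusted p of 0.0023, DESeq2 adjusted p = 0.0668). Slc6a11, Slc6a12 and Slc6a13, carriers of GABA and betaine, and the serotonin transporter gene Slc6a4 were below 2 CPM in every library and did not pass. The dopamine and noradrenaline transporter genes Slc6a3 and Slc6a2 were below the count minimum.

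**Figure D4:**
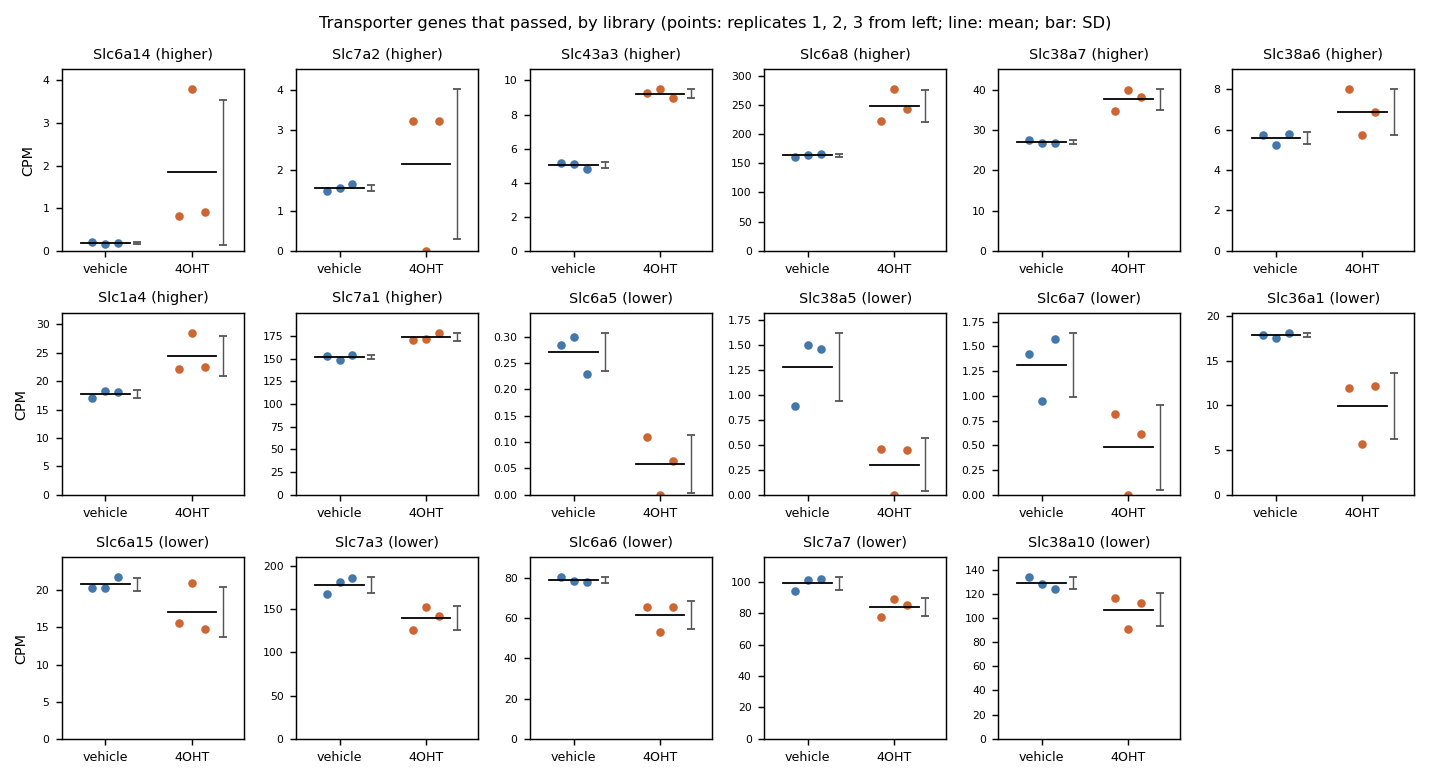
CPM in each library (points: replicates 1, 2 and 3 from left to right) of the transporter genes described in the text that passed edgeR's test, with the group mean as a line and its SD as a bar. The vehicle and 4OHT points overlap in Slc7a2, Slc38a6 and Slc6a15 alone among those drawn, where 4OHT replicate 2 lies below or inside the vehicle range.

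The count minimum of 10 left 13 of the 57 genes untested. Just inside it were Slc6a4, with 10 and 6 counts in vehicle replicate 1 and 4OHT replicate 1, and Slc6a11, with 9 and 11. Just outside were Slc36a3, with 9 and 2 counts, and Slc6a3, with 8 and 7. The 13 genes had at most 0.194 CPM in any library other than 4OHT replicate 2.

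Genes around the transporters were taken from 3 further lists. Of other amino acid and peptide carriers, 3 of 24 tested rose and 5 fell (median log2 fold change -0.07). These are 12.5% higher and 20.8% lower, where 11.1% and 10.8% of all tested genes were called, so the share that rose was near that of all genes. Slc15a1, a proton-coupled peptide carrier, fell from 7.21, 6.69 and 6.1 CPM to 3.41, 1.9 and 2.42 CPM (log2 fold change -1.17, with an edgeR adjusted p of 3.85e-06). Slc25a12, the mitochondrial aspartate-glutamate carrier, fell from 35.5, 37.5 and 38.7 CPM to 29, 26.6 and 30.7 CPM (log2 fold change -0.32, with an edgeR adjusted p of 0.00226). Slc25a40, a mitochondrial carrier, went from 15.3, 15.5 and 14.7 CPM to 21.5, 11.4 and 20.4 CPM (log2 fold change 0.45, with an edgeR adjusted p of 0.000635). DESeq2 did not pass Slc25a12 or Slc25a40 (adjusted p = 0.132 and 0.232).

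Of 33 tested genes of amino acid sensing and mTORC1, 4 rose and 1 fell (median log2 fold change 0.03). The 15.2% called is below the 21.9% called among all tested genes. Rragd, a Rag GTPase that recruits mTORC1 to the lysosome, rose from 54.8, 57.0 and 54.7 CPM to 81.1, 76.1 and 84.5 CPM (log2 fold change 0.57, SE 0.06, with an edgeR adjusted p of 4.47e-07). Sesn2, a leucine sensor, rose from 142, 145 and 137 CPM to 181, 192 and 187 CPM (log2 fold change 0.39, SE 0.06, with an edgeR adjusted p of 3.66e-05). Neither overlapped between the groups. Rraga fell and Mtor rose by less (log2 fold changes -0.17 and 0.17, with an edgeR adjusted p of 0.0424 and 0.0467). Rraga did not pass without any single library other than 4OHT replicate 3, with adjusted p up to 0.166, nor with filterByExpr (0.06) or with no filter on low counts (0.0778). Mtor did not pass without vehicle replicate 2 (0.218), vehicle replicate 3 (0.17) or 4OHT replicate 2 (0.0549). DESeq2 passed neither Rraga nor Mtor (adjusted p = 0.284 and 0.219). Of 22 tested cytosolic tRNA synthetase genes, which charge tRNAs with amino acids, 2 rose and 20 did not pass (median log2 fold change 0.01). The 9.09% called compares with 21.9% of all tested genes in either direction and 11.1% higher. Vars went from 378, 375 and 375 CPM to 414, 445 and 461 CPM and Iars from 392, 395 and 390 CPM to 458, 419 and 443 CPM (log2 fold changes 0.22 and 0.18, with an edgeR adjusted p of 0.00953 and 0.0271). Vars did not pass without vehicle replicate 2 (0.0571) or 4OHT replicate 3 (0.0583), nor Iars without vehicle replicate 1, 2 or 3 (0.0692, 0.122 and 0.101). Sars and Gars had log2 fold changes of 0.16 and 0.11 and did not pass (edgeR adjusted p = 0.0702 and 0.192). Sars passed with the replicate block (0.00233), with filterByExpr (0.0497), with no filter (0.0473) and without 4OHT replicate 1 or 3 (0.0242 and 0.0343), and Gars without 4OHT replicate 1 (0.0465).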

How the data were processed

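Per the labels' protocols, RNA from 6 samples was extracted with Trizol and polyadenylated RNA was made into NEBNext Ultra libraries. The authors deposited whole-number read counts for 23999 gene symbols, to which no scaling had been applied as far as the totals show. STAR, DESeq and mm9 are listed in the submitters' processing notes, without versions. How reads were counted, with which annotation and strand setting, is not given in the sources used here.

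All genes with at least 10 counts in vehicle replicate 1 or 4OHT replicate 1 (15814) were fitted with edgeR 4.0.16 in R 4.3.3: TMM scaling, a quasi-likelihood test with 1 term for treatment, and Benjamini-Hochberg adjustment over all of them at 0.05. Levels are TMM-scaled CPM, and log2 fold changes have a prior count of 0.125. The model weighs libraries by depth. The procedure was tested on simulated data. Alternatives were DESeq2 1.42.0, other filters, RLE size factors, the replicate block and leaving out each library. Lengths and overlaps came from GENCODE vM21 and near-identical copies from blastn 2.17.0 (95% identity over 50% of the transcript). GRCm38 differs from mm9, so its coordinates are given for promoter windows only.

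Deviations from the group means of same-numbered samples correlated at 0.57, 0.15 and 0.39 over 3632 genes, so the numbers may pair the samples, though no label says what they mark and an unmatched pair, vehicle replicate 2 and 4OHT replicate 3, reached 0.45, above 2 of the 3 matched pairs. With a replicate block the same 18 transporter genes passed (8 higher, 10 lower). No pair of libraries within a group agreed within sampling noise (lowest chi-square per degree of freedom 1.18). Named were transporter genes that passed or reached 10 CPM, 4 of each further list by smallest adjusted p, and genes next to the count minimum; other transporter genes were named to account for all. The genes, lists and rule were chosen with earlier results of these data known. Some genes that the rule selects enter the counts and are not reported here by name.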

Additional observations from a re-analysis of the deposited data

How the results depend on the processing

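Of the 18 called transporter genes, 6 passed in all 11 alternatives, and 6 lost the call when 1 library was left out (among them Slc7a1, Slc38a6, Slc38a10, Slc6a5 and Slc6a7). DESeq2 did not pass 10 of the 18 and gave no adjusted p for 2, so that it called 4 higher and 2 lower, with 977 genes called in all where edgeR called 3464; the cause was not tested. No called transporter gene changed sign in any alternative. With filterByExpr 8 rose and 8 fell, and with no filter, RLE size factors or the replicate block 8 rose and 10 fell. All genes called in these runs, in the same order, were 3233 of 14458, 3644 of 20396, 3459 of 15814 and 4341 of 15814. Leaving out single libraries gave 6 to 9 lower calls, beside 2478 to 4244 of 15814 genes called in all. The calls in the 3 further lists, 15 together, numbered 8 to 19 when 1 library was left out (8 without vehicle replicate 2 or 3), 18 with the replicate block and 5 in DESeq2. Near-level genes changed sign without passing: Slc1a3 had log2 fold changes of 0.0083 with filterByExpr, 0.0075 with no filter and 0.0019 with RLE, and from -0.034 to 0.027 with 1 library left out. On leaving out 1 library Slc3a2 ranged from -0.058 to 0.031 and Slc7a5 from -0.16 to 0.032. The shallow 4OHT replicate 2 limits all genes below about 5 CPM.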
